A study of Saccharomyces cerevisiae with 8 samples.

Results

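The genes described here are 36 chaperones and heat shock proteins of the budding yeast Saccharomyces cerevisiae, chosen by their standard gene names from the 7126 rows of an expression table. All 36 were found, 1 row each, and all 36 passed the filter of a mean of at least 1 FPKM, a count of sequenced fragments scaled to gene length and library size. None of them was listed at 0 in any library, and their values ran from 6.52 FPKM (HSP78) to 25148 FPKM (HSP26). The samples were strain S (JHY9200, BY4741 GCR1 ∆4-742), which makes the form of the transcription factor Gcr1 called Gcr1(S), and strain U (JHY9100, BY4741 GCR1 ∆1-574), which makes Gcr1(U). Gcr1 is an activator of glycolytic genes, and the forms differ in how its intron is processed. Both strains thus carry a deletion labelled in GCR1, how its positions are numbered is not stated in the labels, and no strain without such a deletion is among the samples. Cells grew untreated in YPD with 2% glucose at 30 °C, and RNA was taken at 12 h (labelled diauxic shift) and at 6 h (labelled exponential phase), with 2 libraries for each strain and time. The labels number the libraries of a group 1 and 2 but do not say whether they came from separate cultures, so p-values measure only the spread between libraries, which may be technical. RNA came from whole cultures, so fewer cells with a transcript and less transcript per cell cannot be told apart.

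Chaperones bind unfolded proteins and help them fold, keep them soluble or take clumps apart. Hsp70 proteins do so in cycles driven by J proteins, which deliver substrates, and by exchange factors, which release the nucleotide; Hsp90 acts later on signalling proteins and other clients with the help of cochaperones. In budding yeast the transcription factor Hsf1 drives most chaperone genes through heat shock elements, alternating repeats of the bases GAA and TTC, while Msn2 and Msn4 drive general stress genes through the stress response element. At the diauxic shift the glucose runs out, growth slows, and cells turn to respiration of ethanol.

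The summed FPKM of a library was between 1504396 and 1548312, and its depth is unknown, since the deposited values hold no counts. At 12 h, 8 marker genes of growth after the shift summed to between 20100 and 34566 FPKM over the 4 libraries, against 102.5 to 129 FPKM over the 4 libraries at 6 h. GCR1 itself was measured at 104 and 89.0 FPKM in S and 30.2 and 32.9 FPKM in U at 12 h, and at 143 and 58.9 FPKM in S and 60.9 and 40.2 FPKM in U at 6 h; both strains are edited there, so this does not check the labels. Near-identical coding sequences can share reads: HSP82 and HSC82 were 92.4% identical, SSA1 and SSA2 96.8% and SSB1 and SSB2 97.4%, with identical runs of up to 113, 383 and 563 bases against reads of 100 cycles. A second row carrying the name SSA1, with the systematic name YAL004W, lies on the opposite strand and was left out of all counts; whether the authors' counting used the strand is not stated, so reads of SSA1 and of that row cannot be told apart.

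The sequences below show the elements in front of members with large and small differences between the libraries at 6 h, read from the RefSeq genome of build R64 (sacCer3). The 500 bases before the start codon were searched on both strands in 6000 nuclear coding genes for the heat shock element of 2 units (GAANNTTC or TTCNNGAA), for its extensions to 3 and 4 alternating units with the same spacing, and for the stress response element (AGGGG or CCCCT). The longer elements contain the shorter ones, and the search for 4 units was added after the sequences were seen. Capitals mark the heat shock elements (in HSP26 the stress response elements), and each line runs 5′ to 3′ on the strand of its gene. HSP104, HSP42, HSP78 and BTN2 were among the 5 members with the largest difference between libraries at 6 h in S. Each held 1 heat shock element of 4 units. SSA1, SIS1 and KAR2 also held such an element. Their libraries 1 and 2 at 6 h in S differed by 2.71, 2.46 and 1.82 on the log2(FPKM + 1) scale, beside a median of 1.90 over the 36. HSP104, HSP42 and HSP78 also held 3 stress response elements each in the window, and BTN2 held 0. The stretches shown for HSP104, HSP42, HSP78 and BTN2 begin 312, 253, 257 and 354 bases before the start codon. SSA1 held an element of 4 units and another of 3. HSP82, also among those 5, held 2 elements of 2 units, while SSE1 held an element of 3 units and had almost no difference. HSP26 is shown for its 3 stress response elements. Its single heat shock element of 2 units, and the stress response element within the stretch of HSP82, are left in lower case.
HSP104, chrXII:88311-88348, plus strand: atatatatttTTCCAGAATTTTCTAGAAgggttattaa
HSP42, chrIV:806368-806405, plus strand: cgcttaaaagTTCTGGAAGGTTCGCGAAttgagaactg
HSP78, chrIV:974463-974500, minus strand: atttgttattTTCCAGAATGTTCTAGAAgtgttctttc
BTN2, chrVII:772100-772137, plus strand: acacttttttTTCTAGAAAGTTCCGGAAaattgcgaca
SSA1, chrI:141670-141805, minus strand: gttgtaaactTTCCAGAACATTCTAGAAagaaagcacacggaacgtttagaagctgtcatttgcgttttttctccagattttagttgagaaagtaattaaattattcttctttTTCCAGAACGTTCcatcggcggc
HSP82, chrXVI:98675-98870, minus strand: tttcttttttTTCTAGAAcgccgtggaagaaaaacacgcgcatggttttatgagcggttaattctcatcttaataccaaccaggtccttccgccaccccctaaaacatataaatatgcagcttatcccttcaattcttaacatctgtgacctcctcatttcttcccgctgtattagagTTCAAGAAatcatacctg
SSE1, chrXVI:352439-352471, minus strand: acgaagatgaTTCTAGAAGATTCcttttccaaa
HSP26, chrII:381541-381718, plus strand: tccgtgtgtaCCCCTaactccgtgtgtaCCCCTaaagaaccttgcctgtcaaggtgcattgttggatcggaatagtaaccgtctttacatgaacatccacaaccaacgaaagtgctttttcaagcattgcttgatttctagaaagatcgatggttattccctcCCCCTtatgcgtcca

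A heat shock element of 2 units was found before 29 of the 36 genes (80.6%), against 35.2% of the 6000 genes. One of 3 units was found before 14 of 36 (38.9%), against 89 of 6000 (1.48%), and one of 4 units before 7 of 36 (19.4%: SSA1, SIS1, HSP104, HSP42, BTN2, HSP78 and KAR2), against 16 of 6000 (0.267%). The stress response element was before 13 of 36 (36.1%), near the 34.1% of all genes. SSA3, SSB1, SSC1, MDJ1, MGE1, HSP30 and HSF1 had no heat shock element of these letters in the window. A match describes letters only and shows neither binding nor a cause.

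For most of the 36 genes the 2 libraries of a group differed widely at 6 h and little at 12 h. In both strains library 1 at 6 h held far more chaperone transcript than library 2: on the log2(FPKM + 1) scale, the median of the 36 differences, library 1 minus library 2, was 1.90 in S (from -0.58 to 5.77) and 1.83 in U (from -0.45 to 6.26). Over all 6339 rows tested the median was 0.14 in S and 0.02 in U. In each strain 24 of the 36 genes (66.7%) were at least 2-fold higher in library 1, against a background of 8.42% of all rows in S and 4.59% in U. At 12 h the median difference was 0.16 in S and 0.20 in U, and 2 of the 36 genes in each strain, SSA3 and SSA4, were at least 2-fold higher in library 1, against 1.28% of all rows in S and 1.26% in U. There is 1 library on each side of these differences, so no test was made.

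**Figure D1:**
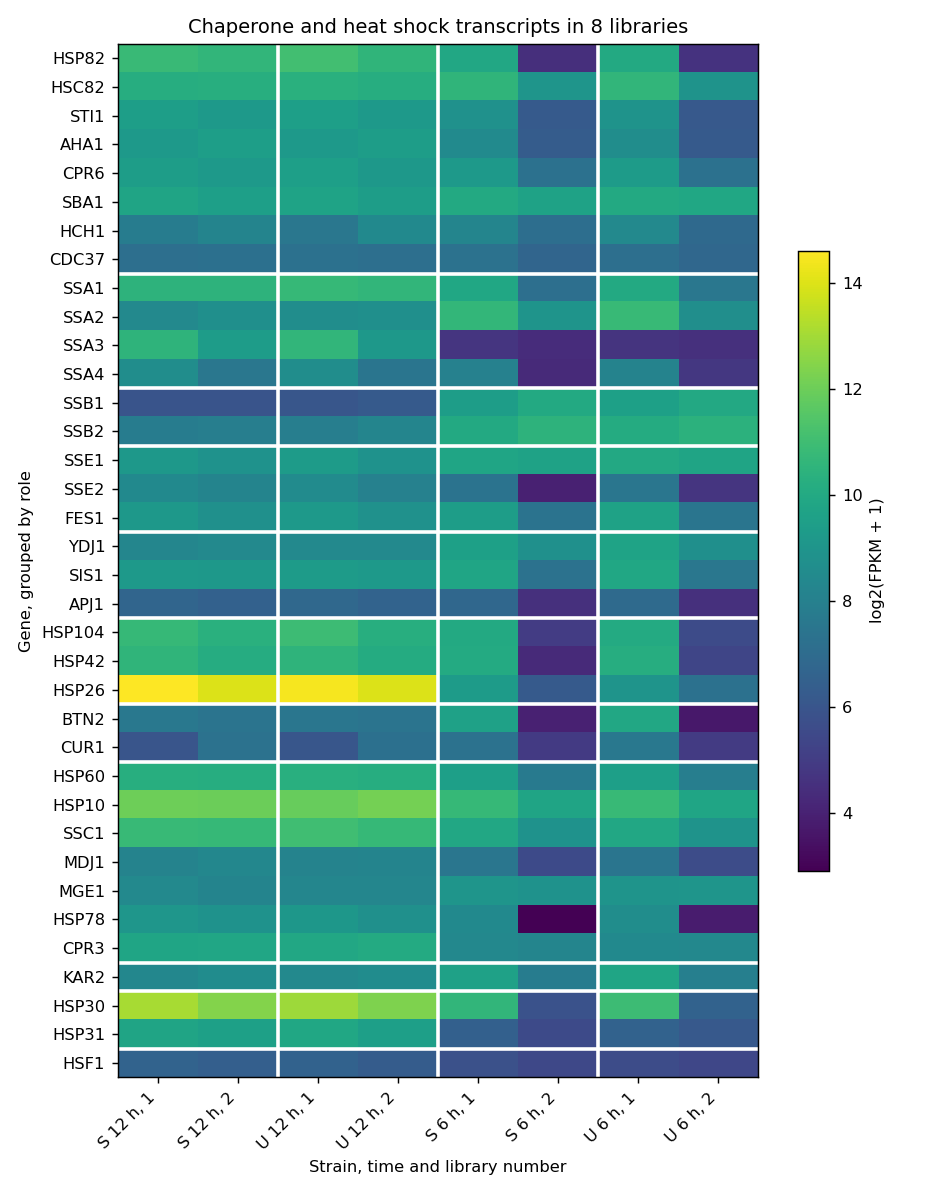
Level of each of the 36 genes on the log2(FPKM + 1) scale (colour) in each of the 8 libraries (columns), with genes in rows by role. The columns of library 2 at 6 h are the lowest of their strain for 29 of the 36 genes in S and in U, while the rows of SSB1 and SSB2 run the other way.

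The difference at 6 h was alike in the strains, gene by gene. BTN2 (6.26 in U), HSP42 (5.77 in S), HSP78 (5.57 in S) and HSP82 (5.45 in S) were at the top, and SSB1 (-0.58 in S) was at the bottom. Across the 36 genes the differences in S and U correlated at 0.976, against 0.641 across all rows tested; this is a description over genes, which are not independent, and the libraries compared share their numbers. Members with a heat shock element of 3 units had a median difference of 2.33 in S and 2.36 in U, and those without one of 1.08 and 1.27. In all other genes the median difference was 0.21 in S and 0.13 in U with the element, and 0.15 and 0.03 without it. Of the 24 members at least 2-fold higher in library 1, 12 had the 3-unit element in each strain, as did 38.9% of all 36. Among other genes, 11.0% with this element (73 genes) and 7.68% without it (5640 genes) were at least 2-fold higher in library 1 of S. In U the shares were 6.85% and 3.76%. For the element of 2 units the shares with and without it were 8.11% and 7.51% in S and 4.15% and 3.61% in U. Members with the stress response element had medians of 3.11 in S and 2.44 in U, and those without it 1.54 and 1.62. It stood before 11 of the 24 in each strain, and before 36.1% of all 36.

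Other gene groups moved beside the chaperones in these libraries. Of 10 general stress genes, 10 in S and 9 in U were higher in library 1 at 6 h, with a median difference of 2.55 and 1.64. Of 10 ribosome biogenesis genes, 0 were higher in library 1 in either strain (median -0.81 in S and -0.66 in U). The summed markers of growth phase were close between the libraries, though single ones differed. The 8 genes of growth on glucose summed to 27565 and 30468 FPKM in libraries 1 and 2 of S and to 26762 and 26316 FPKM in those of U, and the 8 genes of growth after the shift to 108 and 123 FPKM in S and 103 and 129 FPKM in U. Library 1 was higher for 3 of the 8 genes of growth on glucose in S and for 5 in U. Of the 8 genes of growth after the shift, 4 were higher in library 1 in each strain. HXT3, a low-affinity glucose transporter, was lower in library 1, by -0.90 in S and -0.91 in U on the log2 scale. ADH2, an alcohol dehydrogenase that consumes ethanol, was lower there by -1.11 in S and -0.87 in U. What set libraries 1 and 2 apart was not tested.

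**Figure D2:**
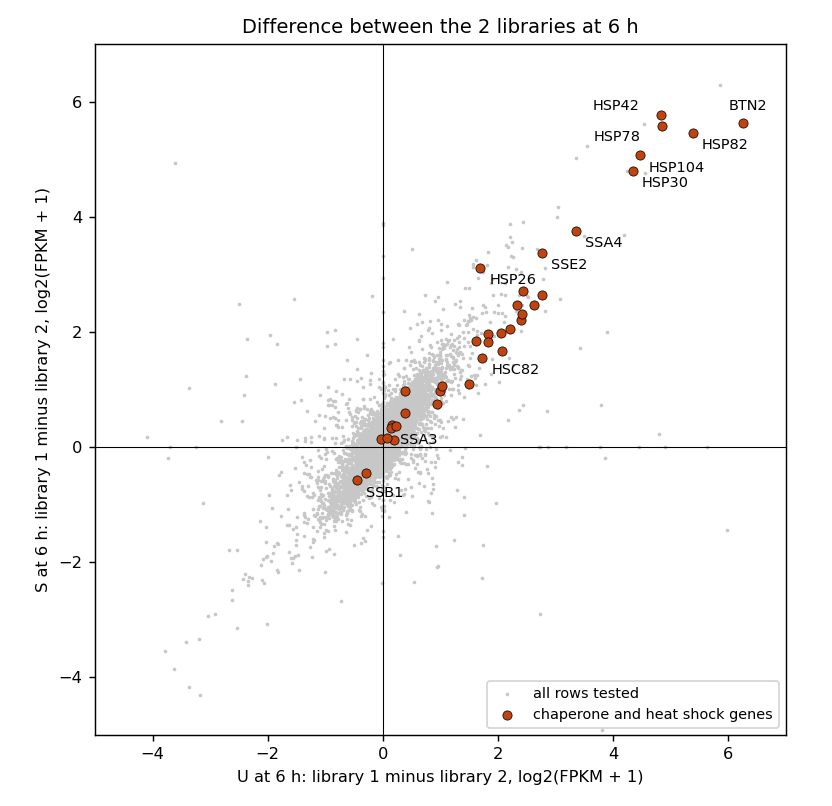
Difference between library 1 and library 2 at 6 h on the log2(FPKM + 1) scale, with strain S on the vertical and strain U on the horizontal axis. Each of the 36 genes is a coloured point over all rows tested (grey, 11 rows outside the axes); HSP42, BTN2, HSP78 and HSP82 lie at the upper right, at 4.83 or more in both strains, and SSB1 and SSB2 below 0.

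Between 12 h and 6 h, 7 of the 36 genes rose and 4 fell in both strains by the limma test over all rows (adjusted p under 0.05). The 7 were SSA3, HSP26, HSP10, SSC1, CPR3, HSP31 and HSF1, and the 4 were SSB1, SSB2, SSE1 and MGE1. The background was 33.2% of all rows higher and 22.9% lower in S, and 33.5% higher and 21.7% lower in U, so the members' shares are below the background. The median log2 fold change of the 36 was 1.22 in S and 1.24 in U, with 28 above 0 in each. The median of all rows was 0.23 in S and 0.26 in U, with 3672 of 6339 above 0 in S and 3737 in U. With 1 library left out the members' median ran from 0.16 to 2.09 in S and from 0.09 to 2.12 in U. Against library 1 at 6 h alone, 20 of the 36 genes in S and 19 in U were above 0. That share was not worked out for all rows. The members' median was then 0.16 in S and 0.09 in U, beside 0.13 and 0.23 for all rows. Against library 2 alone it was 2.09 and 2.12, beside 0.30 and 0.26. The calls of SSA3, HSP26, CPR3, HSP31, SSB1 and SSB2 held in each strain with any 1 library left out. HSF1 lost its call in a strain without library 1 of that strain at 12 h, and MGE1 without library 2 at 12 h in S or library 2 at 6 h in U. HSP10, SSC1 and SSE1 each lost theirs in several of these fits. Median-of-ratios scaling brings the median of all rows to 0.02 in both strains, and with it CDC37 changes sign. With this scaling YDJ1 was also called lower in S and U (limma, adjusted p = 0.0392 and 0.0382), and SBA1 in U (adjusted p = 0.0263). The background called lower was then 28.1% of all rows in S and 27.8% in U. Fold changes here are on the log2(FPKM + 1) scale, which understates those of low genes.

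Many members that missed the threshold did so with wide errors, since the fit took the difference between the 6 h libraries as spread. Not all did: SBA1, CDC37 and YDJ1 had standard errors of 0.21, 0.24 and 0.37 in this fit, beside 0.54 for SSA3, which was called. Both 12 h libraries lay above both 6 h libraries for 18 genes in S and 17 in U (background 47.1% and 49.2%) and below both for 6 and 6 (background 32.8% and 31.9%). For HSC82, FES1, SIS1, APJ1, BTN2, CUR1 and KAR2 the 12 h values lay between the 2 libraries at 6 h in both strains. The direction of their change thus depends on which 6 h library is taken. Without the 6 h libraries of number 1, 27 genes were called higher and 4 lower in S and 26 and 3 in U, against backgrounds of 39.1%, 23.2%, 37.1% and 22.9%. Without those of number 2, 13 were higher and 8 lower in S and 12 and 8 in U, against backgrounds of 29.6%, 21.5%, 33.9% and 19.9%. In these fits the single library left at 6 h is assumed to vary like the 12 h libraries.

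**Figure D3:**
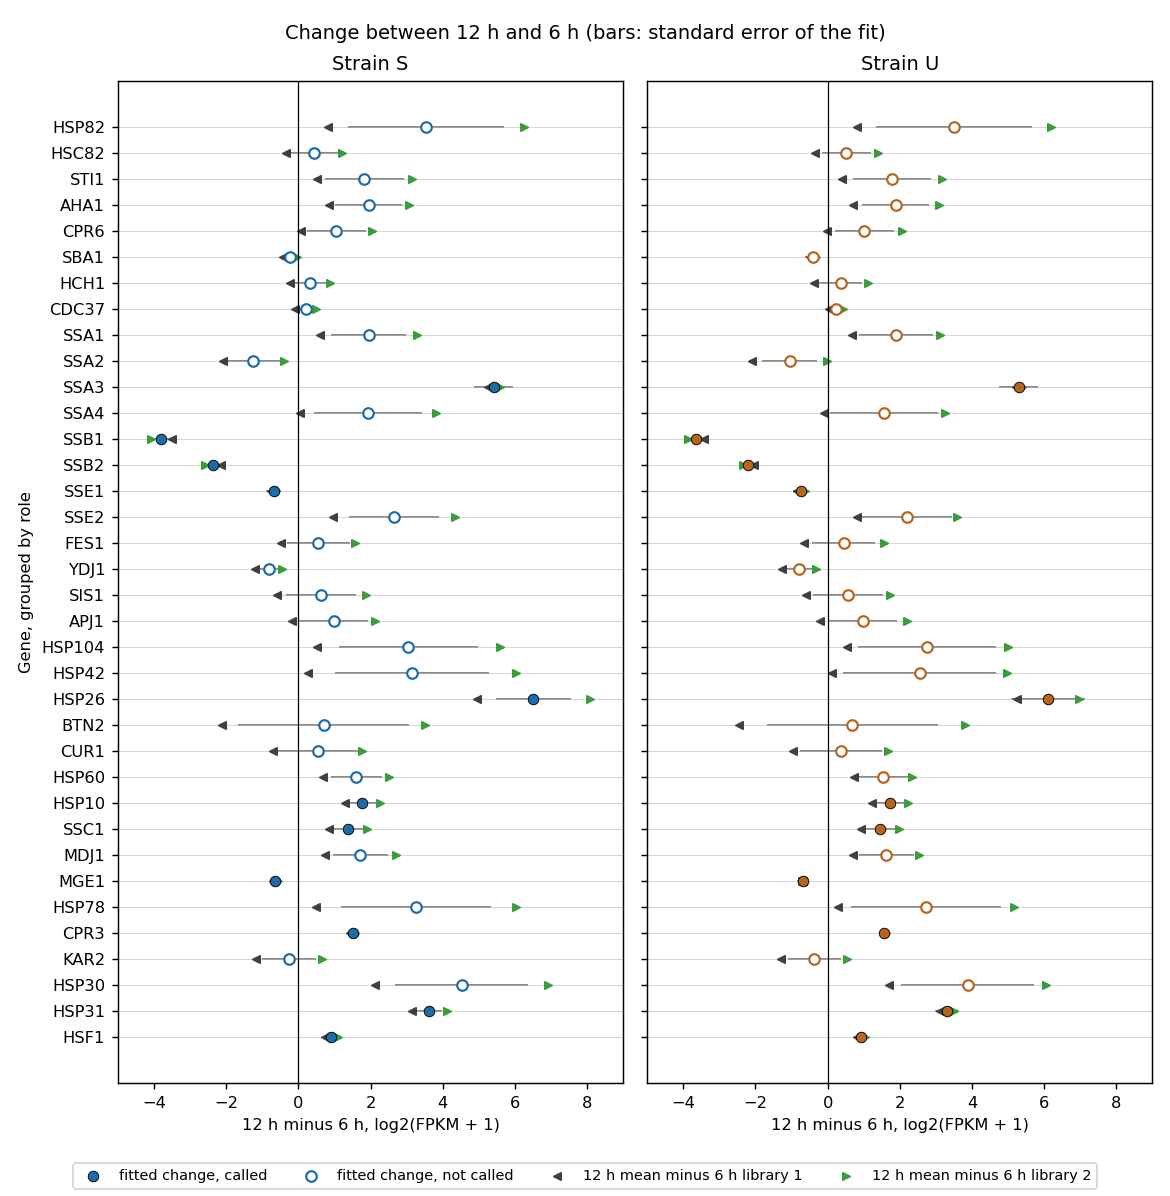
Log2 fold change on the log2(FPKM + 1) scale, 12 h minus 6 h, of each gene in strain S (left) and strain U (right), with bars of ± 1 standard error of the limma fit and filled points at an adjusted p under 0.05. Triangles give the 12 h mean minus each single 6 h library; they sit far apart for HSP82, HSP42 and BTN2 and close together for SSA3, CPR3 and SSB1.

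Among Hsp90 and its cochaperones, 0 of 8 genes passed the test in either strain. HSP82 (YPL240C, chrXVI:96496-98625 in R64), the stress-inducible Hsp90, stood at 1837 and 1591 FPKM in S and 2135 and 1516 FPKM in U at 12 h, and at 973 and 21.2 FPKM in S and 1025 and 23.6 FPKM in U at 6 h. Library 2 at 6 h was 45.8-fold below library 1 in S and 43.4-fold in U, and all 12 h libraries were above both. The log2 fold change was 3.54 ± 2.16 in S (adjusted p = 0.204) and 3.50 ± 2.16 in U (adjusted p = 0.210), with its standard error. HSC82, the constitutive Hsp90, stood at 1195 and 1206 FPKM in S at 12 h and 1513 and 518 FPKM at 6 h, so its 12 h values lay inside the 6 h range. The ratio of HSP82 to HSC82 was 1.54 and 1.32 in S and 1.63 and 1.27 in U at 12 h, and at 6 h it was 0.643 and 0.0410 in S and 0.647 and 0.0494 in U; shared reads can blur it.

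The cochaperones fell into those with and without a step at 6 h. STI1, which bridges Hsp70 and Hsp90, AHA1, which stimulates the Hsp90 ATPase, and CPR6, a peptidyl-prolyl isomerase, were 2.64, 2.20 and 1.98 higher on the log2 scale in library 1 than in library 2 of S at 6 h, and 2.76, 2.40 and 2.06 in U. AHA1 showed 602 and 719.8 FPKM at 12 h and 363 and 78.5 FPKM at 6 h in S. Without both 6 h libraries of number 2, AHA1 was higher at 12 h by 0.86 on the log2 scale in S and 0.69 in U. Without both of number 1 it was higher by 3.05 in S and 3.09 in U. SBA1, the yeast p23, and CDC37, which delivers kinases to Hsp90, differed by at most 0.60 between the libraries at 6 h. HCH1, a smaller relative of AHA1, differed by 1.10 in S and 1.50 in U. The changes of SBA1, CDC37 and HCH1 with time ran from -0.41 to 0.36, and none was called.

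The 4 cytosolic Hsp70 genes took separate courses. SSA3 (YBL075C, chrII:84499-86448), a stress-induced member, rose: it stood at 1494 and 674 FPKM in S and 1571 and 575 FPKM in U at 12 h, and at 25.4 and 19.9 FPKM in S and 24.5 and 21.9 FPKM in U at 6 h. No 12 h library came near the 6 h libraries, which were close to each other here, while library 1 at 12 h was more than 2-fold above library 2. The log2 fold change was 5.42 ± 0.54 in S and 5.30 ± 0.54 in U (limma, adjusted p = 0.000532 and 0.000594). SSA4, another stress-induced member, stood at 399 and 188 FPKM in S and 406 and 174 FPKM in U at 12 h, and at 265 and 18.7 FPKM in S and 286 and 27.0 FPKM in U at 6 h. Library 2 was low at both times, most of all at 6 h, and the times overlap. SSA1 stood at 1412 and 1420.2 FPKM in S and 1722 and 1559 FPKM in U at 12 h, and at 941 and 143 FPKM in S and 1025 and 188 FPKM in U at 6 h. All 12 h libraries were above the 6 h ones, but the change of 1.94 ± 1.03 in S missed the threshold (adjusted p = 0.153), as did that of 1.90 ± 1.03 in U (adjusted p = 0.162). Its near copy SSA2 pointed the other way, at -1.24 in S and -1.05 in U, and was not called. The ratio of SSA1 to SSA2 was 4.15 and 3.33 in S and 4.26 and 3.67 in U at 12 h, and 0.584 and 0.283 in S and 0.582 and 0.452 in U at 6 h.

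SSB1 and SSB2, the Hsp70 proteins that sit on ribosomes and bind nascent chains, fell at 12 h in both strains. SSB1 (YDL229W, chrIV:44065-45906) stood at 60.2 and 59.9 FPKM in S and 64.1 and 73.2 FPKM in U at 12 h, and at 691 and 1034 FPKM in S and 745 and 1016 FPKM in U at 6 h, a log2 fold change of -3.79 ± 0.25 in S and -3.65 ± 0.25 in U (limma, adjusted p = 0.000151 and 0.000169). SSB2 stood at 225 and 241 FPKM in S and 240.3 and 304 FPKM in U at 12 h, and at 1032 and 1404 FPKM in S and 1119 and 1373 FPKM in U at 6 h, a log2 fold change of -2.36 ± 0.22 and -2.19 ± 0.22 (adjusted p = 0.000436 and 0.000585). The groups are far apart for both genes. At 6 h both were the opposite of the other Hsp70 genes of the cytosol, lower in library 1 than in library 2 in each strain.

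Of the exchange factors, SSE1 fell modestly and SSE2 and FES1 were not called. SSE1 stood at 567 and 475 FPKM in S and 654 and 471 FPKM in U at 12 h, and at 874 and 799 FPKM in S and 991 and 862 FPKM in U at 6 h. Every 12 h library was below every 6 h library, and the log2 fold change was -0.69 ± 0.21 in S (adjusted p = 0.0329) and -0.73 ± 0.21 in U (adjusted p = 0.0260). The call was lost without the 6 h libraries of either number, at adjusted p = 0.103 and 0.0749 in S and 0.102 and 0.0559 in U. SSE2, its stress-induced paralog, stood at 349 and 290.5 FPKM in S and 375 and 266 FPKM in U at 12 h, and at 163 and 14.8 FPKM in S and 178 and 25.4 FPKM in U at 6 h. Library 2 at 6 h was lowest by far. FES1, an exchange factor for cytosolic Hsp70, was 2.05 higher in library 1 than in library 2 of S at 6 h and 2.22 higher in U.

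No J protein of the cytosol and nucleus passed the test. SIS1, an essential J protein that works with Ssa proteins on misfolded substrates, stood at 606 and 568 FPKM in S and 653 and 596 FPKM in U at 12 h, and at 888 and 160.1 FPKM in S and 949 and 188 FPKM in U at 6 h. Its 12 h values lay between those of the 2 libraries at 6 h: without the 6 h libraries of number 1 it was called higher at 12 h, by 1.87 in S and 1.73 in U, and without those of number 2 lower, by -0.60 in S and -0.61 in U. APJ1, a J protein of the nucleus, stood at 106 and 93.9 FPKM in S and 116 and 97.2 FPKM in U at 12 h, and at 113 and 21.9 FPKM in S and 124 and 22.4 FPKM in U at 6 h. The 12 h values of APJ1, like those of SIS1, fell inside the 6 h range. YDJ1, the abundant J protein of the cytosol, was below both 6 h libraries at 12 h in each strain, with a change of -0.82 ± 0.37 in S (adjusted p = 0.1) and -0.80 ± 0.37 in U (adjusted p = 0.107).

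HSP26 (YBR072W, chrII:382030-382674), a small heat shock protein that holds unfolded proteins in a soluble state, was the most abundant of the 36 at 12 h, though not in any library at 6 h, and had the largest change with time of the 36 in either strain. It stood at 25148 and 16283 FPKM in S and 22292 and 16254 FPKM in U at 12 h, and at 651 and 74.4 FPKM in S and 497 and 153 FPKM in U at 6 h. The lowest 12 h library was thus far above the highest 6 h library, while library 1 was above library 2 in every group. The log2 fold change was 6.51 ± 1.03 in S and 6.10 ± 1.03 in U (limma, adjusted p = 0.00284 and 0.00367). HSP26 held rank 3 or 4 among all rows at 12 h, and ranks from 378 to 2396 at 6 h.

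HSP42, the other small heat shock protein, and HSP104, the disaggregase that pulls proteins out of aggregates, were not called. HSP42 stood at 1508 and 1127 FPKM in S and 1492 and 1091 FPKM in U at 12 h, and at 1088 and 19.0 FPKM in S and 1163 and 39.9 FPKM in U at 6 h. In U the 12 h and 6 h libraries overlapped, and in S they did not; the change was 3.14 ± 2.12 in S (adjusted p = 0.246) and 2.55 ± 2.12 in U (adjusted p = 0.340). HSP104 stood at 1741 and 1314 FPKM in S and 1953 and 1230.0 FPKM in U at 12 h, and at 1055 and 30.6 FPKM in S and 1076 and 47.7 FPKM in U at 6 h. Library 1 at 6 h was within 2-fold of the 12 h libraries for both genes, and library 2 was far below library 1. Set against library 1 alone, the 12 h mean of HSP104 was 0.52 higher on the log2 scale in S and 0.53 in U; set against library 2 alone, it was 5.58 and 4.99 higher.

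BTN2 and CUR1, relatives that sort misfolded proteins to storage sites, had 12 h values between the libraries at 6 h. BTN2 (YGR142W, chrVII:772454-773686) stood at 193 and 168 FPKM in S and 182 and 169 FPKM in U at 12 h, and at 780.4 and 14.8 FPKM in S and 959.7 and 11.5 FPKM in U at 6 h. Library 1 was above all 12 h libraries and library 2 below them in each strain. The change was 0.71 ± 2.37 in S (adjusted p = 0.816) and 0.68 ± 2.37 in U (adjusted p = 0.824). Without the 6 h libraries of number 2 BTN2 was called lower at 12 h, by -2.11 in S and -2.45 in U, and without those of number 1 higher, by 3.52 and 3.81. CUR1 stood at 62.4 and 157 FPKM at 12 h and 161 and 28.4 FPKM at 6 h in S, with library 2 above library 1 at 12 h and below it at 6 h.

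The mitochondrial chaperones mostly pointed upward at 12 h, and 3 of 7 were called higher in each strain, near the background of 33.2% of all rows in S and 33.5% in U. HSP10, the lid of the Hsp60 folding chamber, stood at 4179.5 and 4114 FPKM in S and 3787 and 4548 FPKM in U at 12 h, and at 1700.0 and 862 FPKM in S and 1778 and 893 FPKM in U at 6 h, with no overlap. Its log2 fold change was 1.78 ± 0.42 in S (adjusted p = 0.0130) and 1.72 ± 0.42 in U (adjusted p = 0.0147). SSC1, the Hsp70 that drives protein import, rose on the log2 scale by 1.38 ± 0.44 in S and 1.45 ± 0.44 in U (adjusted p = 0.0381 and 0.0318), a call in S that median-of-ratios scaling ended. CPR3, a peptidyl-prolyl isomerase of the matrix, rose by 1.50 ± 0.15 in S and 1.58 ± 0.15 in U (adjusted p = 0.000496 and 0.000449), and library 1 at 6 h was only 1.11-fold above library 2 in S and 1.05-fold in U. HSP60, which forms the folding chamber, and MDJ1, the J protein partner of Ssc1, were above both 6 h libraries at 12 h, by 1.60 and 1.72 in S and 1.53 and 1.63 in U, and were not called. Without the 6 h libraries of either number both were called higher in each strain: without those of number 2 HSP60 was at 0.69 in S and 0.72 in U and MDJ1 at 0.74 and 0.71, and without those of number 1 HSP60 was at 2.52 and 2.34 and MDJ1 at 2.70 and 2.54.

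MGE1 and HSP78 stood apart from the other mitochondrial members. MGE1, the nucleotide exchange factor of Ssc1, fell: it showed 342 and 293 FPKM in S and 315 and 310.0 FPKM in U at 12 h, and 519.8 and 473 FPKM in S and 498 and 511 FPKM in U at 6 h. The change was -0.64 ± 0.15 in S (adjusted p = 0.0116) and -0.69 ± 0.15 in U (adjusted p = 0.00923), while SSC1 and MDJ1 of the same cycle pointed upward. HSP78, the disaggregase of the matrix, stood at 528 and 463 FPKM in S and 546 and 444 FPKM in U at 12 h, and at 356 and 6.52 FPKM in S and 399.7 and 12.8 FPKM in U at 6 h. Library 2 at 6 h in S held the lowest value of any member in any library, and the change of 3.26 ± 2.08 in S was not called (adjusted p = 0.222).

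KAR2, the Hsp70 of the endoplasmic reticulum, stood at 318 and 384 FPKM in S and 346 and 385 FPKM in U at 12 h, and at 788 and 223 FPKM in S and 889.9 and 249 FPKM in U at 6 h. The 12 h values lay inside the 6 h range, and the change of -0.26 ± 0.74 in S and -0.37 ± 0.74 in U was not called (adjusted p = 0.781 and 0.695). Without the 6 h libraries of number 2 it was called lower in both strains, by -1.17 and -1.28; without those of number 1 it was called higher in S, by 0.64 (adjusted p = 0.0346), with 0.55 in U (adjusted p = 0.0541).

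HSP30 and HSP31 were high at 12 h. HSP30, a membrane protein that restrains the proton pump of the plasma membrane, stood at 8692 and 5581 FPKM in S and 7675 and 5281 FPKM in U at 12 h, and at 1588 and 56.3 FPKM in S and 1943 and 94.7 FPKM in U at 6 h. All 12 h libraries were above both at 6 h, yet with the step between the 6 h libraries the change of 4.53 ± 1.84 in S (adjusted p = 0.0767) and 3.88 ± 1.84 in U (adjusted p = 0.116) missed the threshold. Without the 6 h libraries of either number HSP30 was called higher in both strains. HSP31, a methylglyoxalase with chaperone activity, stood at 849.7 and 745 FPKM in S and 944 and 722 FPKM in U at 12 h, and at 88.8 and 45.0 FPKM in S and 94.1 and 72.1 FPKM in U at 6 h. It rose by 3.63 ± 0.34 in S and 3.31 ± 0.34 in U (adjusted p = 0.000431 and 0.000594).

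HSF1, the gene of the regulator itself, stood at 97.4 and 87.9 FPKM in S and 95.7 and 78.8 FPKM in U at 12 h, and at 55.4 and 42.7 FPKM in S and 49.0 and 41.5 FPKM in U at 6 h. Its libraries at 6 h were close, with library 1 above library 2 by 0.37 in S and 0.24 in U. It rose by 0.92 ± 0.19 in S and 0.93 ± 0.19 in U (adjusted p = 0.00791 and 0.00756).

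As a share of all FPKM, the 36 genes made up 3.96% and 3.06% of the sum in S and 3.82% and 2.98% in U at 12 h, and 1.62% and 0.616% in S and 1.71% and 0.661% in U at 6 h. HSP26 alone gave 1.65% and 1.08% in S and 1.47% and 1.05% in U at 12 h, and at most 0.0431% at 6 h. Without HSP26 the other 35 genes gave 2.32% and 1.97% in S and 2.36% and 1.93% in U at 12 h, and 1.58% and 0.611% in S and 1.68% and 0.651% in U at 6 h. With HSP26 set aside, library 1 of the 6 h groups was thus nearer to the 12 h share than library 2, though below every 12 h library.

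**Figure D4:**
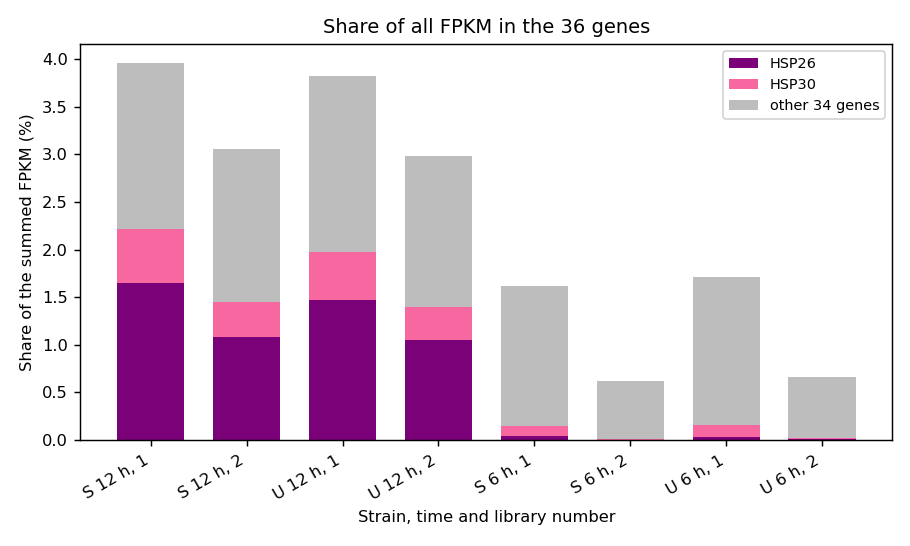
Share of the summed FPKM (percent) taken in each of the 8 libraries by HSP26, by HSP30 and by the other 34 genes. The 12 h libraries reach 2.98% to 3.96%, and the 6 h libraries 1.62% and 1.71% for number 1 against 0.616% and 0.661% for number 2.

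Between the strains, 0 of the 36 genes differed by the limma test at either time, and in the fit to all 4 groups 0 differed at an unadjusted p under 0.05. The background was 0.126% of all rows at 12 h and 0.0789% at 6 h. At 12 h the log2 fold change of the 36, S minus U, had a median of -0.03 and ran from -0.21 (SSB2) to 0.13 (HSP30). At 6 h the median was -0.09, and the values ran from -0.56 (HSP42) to 0.11 (HSF1). With 1 library left out this median ran from -1.05 to 0.90. Below 0 were 30 of the 36 genes at 6 h, beside 3229 of the 6339 rows, and 21 at 12 h, beside 4194. These are counts over genes, which are not independent. The strains' libraries did not overlap at 12 h for 3 genes, SSA1, SSB1 and CPR3, all lower in S, against 20.6% of all rows, and at 6 h for 0 genes, against 10.7%. The difference of the time changes, S minus U, had a median of 0.05 over the 36 genes (from -0.91 to 1.02 with 1 library left out) and was called for 0 of them, against 0.0789% of all rows.

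How small a strain difference these data can bound depends on the time and on the fit. In the fit to all 4 groups the standard error of a member's strain difference ran from 0.15 to 2.37, since the spread of the 6 h libraries enters it, and the 95% interval lay within 2-fold for 10 of 36 genes at 12 h and 9 at 6 h. Fitted to the 12 h libraries alone, it ran from 0.09 to 0.66, and the interval lay within 2-fold for 32 of 36 genes. HSP26 differed there by 0.09 (95% interval from -0.75 to 0.92) and SSA1 by -0.21 (from -0.51 to 0.09). At 6 h the libraries alone gave intervals within 2-fold for 9 of 36 genes, and HSP42 differed by -0.56 (from -8.59 to 7.46). In these fits, which make no use of the library numbers, a strain difference at 6 h was thus not detectable in most members, which is not the same as its absence.

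**Figure D5:**
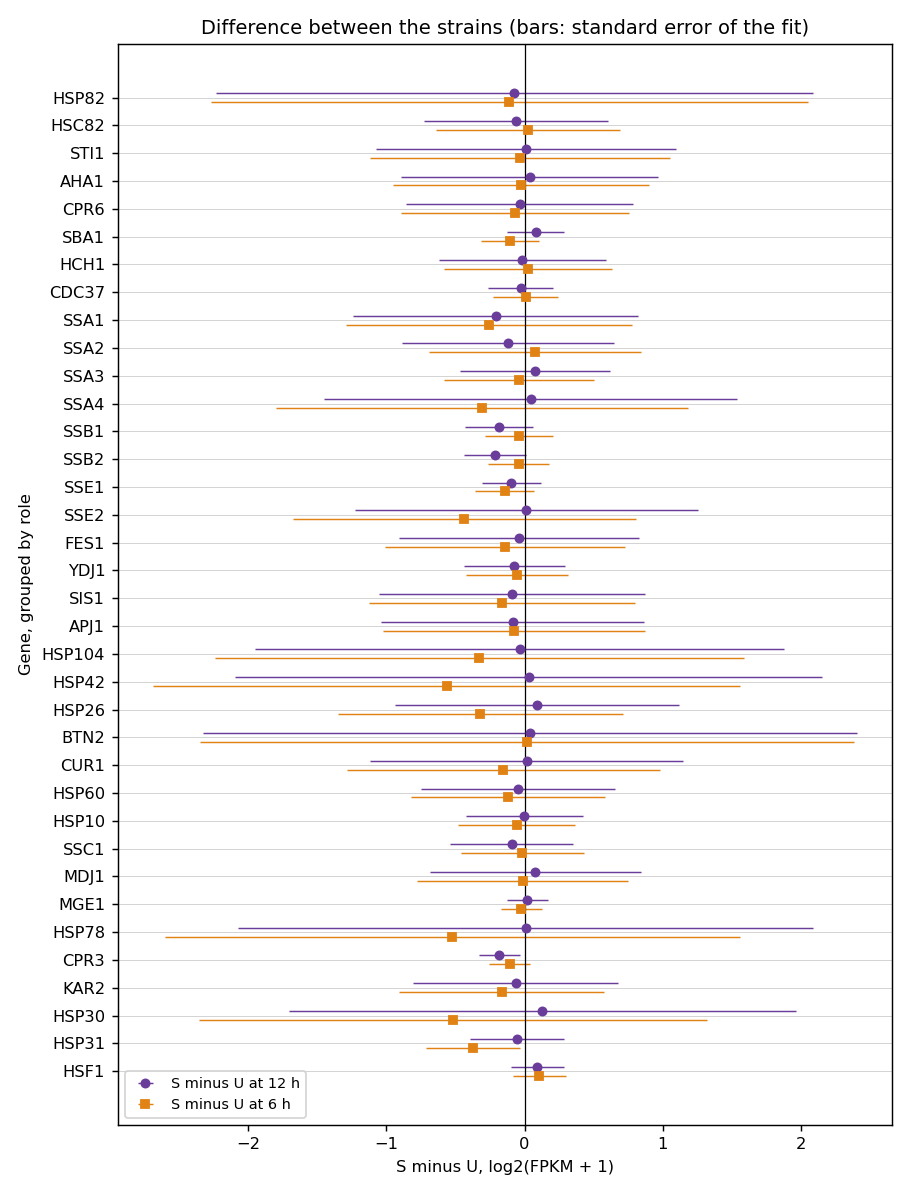
Log2 fold change on the log2(FPKM + 1) scale, S minus U, of each of the 36 genes at 12 h and at 6 h, with bars of ± 1 standard error of the limma fit to all groups. All points lie between -0.56 and 0.13, and 0 were called.

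The rest of the folding machinery, in lists of other genes of the same pathways, moved with time as follows, beside a background of 22.9% of all rows called lower in S and 21.7% in U. The CCT chaperonin, which folds actin and tubulin, fell: 8 of 8 subunits were called lower in S and 7 of 8 in U, with a median log2 fold change of -1.14 in each. Of prefoldin, which hands substrates to CCT, 5 of 6 subunits were called lower in both strains (median -0.97 in S and -0.98 in U). Of 5 factors that bind nascent chains at the ribosome, 4 were called lower in both strains, with ZUO1, the J protein partner of the Ssb proteins, at -2.19 in S and -2.16 in U. Of 9 folding genes of the endoplasmic reticulum, 6 were called lower in both strains, with ERO1, the oxidase that feeds disulfide formation, at -1.70 in S and -1.57 in U. These falls stand beside the fall of SSB1 and SSB2 and the lack of a call for KAR2. CCT subunits had no step like that of most members at 6 h: their median difference between libraries 1 and 2 was -0.27 in S and -0.22 in U.

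Lists closer to the stress-induced members had calls in both directions, beside a background of 33.2% of all rows called higher in S and 33.5% in U. Of 6 other Hsp90 cochaperones 3 were called higher and 3 lower in each strain, with PPT1, a phosphatase that acts on Hsp90, at -2.29 in S and -2.26 in U. Of 9 other mitochondrial chaperones and parts of the import motor, 4 were called higher in each strain and 2 lower in S and 1 in U, shares near the background. ECM10, a paralog of SSC1, was highest among the called genes at 1.51 in S and 1.47 in U. Of 10 general stress genes 5 were called higher and 0 lower in each strain (median 2.37 in S and 2.46 in U), with HSP12, a membrane-binding stress protein, at 6.97 in S and 6.02 in U. Between the strains 0 genes of these lists were called at either time.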

How the data were processed

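The authors deposited 1 table of FPKM, with 2 decimals, for 8 libraries. Per the labels' protocols, RNA was extracted with hot phenol, and TruSeq Stranded mRNA libraries were sequenced paired-end with 100 cycles on a HiSeq2500. The submitters' processing notes name bcl2fastq 1.8.2, FastQC 0.10.1, TopHat2 2.1.1, Cufflinks and the build sacCer3; no source used here gives the annotation, the version of Cufflinks or the depth. Rows whose mean reached 1 FPKM (6339) were put on the log2(FPKM + 1) scale. The 5 comparisons came from a single limma model (version 3.58.1, R 4.3.3, eBayes with trend, tested on simulated data) of the 4 groups, in which 4 degrees of freedom were residual and 2.33 came from the prior. Two-sided p-values were corrected over every row of a comparison (Benjamini-Hochberg), and a gene was called at an adjusted p under 0.05. Errors given as ± are standard errors of the fit. All 36 genes were matched to the RefSeq annotation of R64 by locus tag, and sequences and motifs were read with Python 3.11.15. In each role class, a rule picked the genes given with values in every library. It took the highest mean, the largest change with time and the largest difference between libraries at 6 h, and HSF1. The values of the others named (HSC82, HSP104, HSP31, AHA1, CUR1 and MGE1) were added after their values were seen. The members and the lists were chosen with earlier results of these data known, and no list test was made. Other pseudocounts, filters, scalings, replicate blocks and left-out libraries were tried as alternatives.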

Additional observations from a re-analysis of the deposited data

How the results depend on the processing

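The counts of called members held within 1.5 times under pseudocounts of 0.1 and 10, no filter, a mean of at least 10 FPKM, median-of-ratios and quantile scaling, no trend and fits to the compared groups alone. With the replicate number as a term (replicate block) 10 genes were called higher and 4 lower in S and 8 and 5 in U. Beside them, 35.9% of all rows were called higher and 24.3% lower in S and 36.4% and 23.2% in U. With a replicate block within each time the counts were 26 and 7 in S and 26 and 8 in U. In that fit 45.4% of all rows were called higher and 30.7% lower in S and 46.4% and 30% in U. That fit takes the step between the 6 h libraries out of the error. It thus also calls BTN2, SIS1, FES1, CUR1, APJ1 and HSC82 higher and KAR2 lower in both strains. The direction of these genes turns with the 6 h library used, as in U does that of CPR6 and SSA4, also called higher. For the strains at 6 h it gave 95% intervals within 2-fold for 34 of 36 genes and 0 genes called. It put 5 genes at an unadjusted p under 0.05 (SSA4, SSE2, HSP42, HSP78 and HSP30, all lower in S). The share of all rows at that p was not worked out for this fit, so the 5 are not read as a strain difference. HSP42 was at -0.56, with an interval from -1.13 to -0.0030. The labels do not say that a number marks a shared culture; the correlation over members of the differences between libraries 1 and 2 was 0.925 for S and U at 12 h, 0.976 for S and U at 6 h, 0.235 for the times in S and 0.194 for the times in U. Leaving out each library in turn gave 4 to 18 genes called higher and 2 to 4 lower in S, and 4 to 12 called higher in U. Without both 6 h libraries of number 1, 27 were higher in S and 26 in U; without both of number 2, 13 were higher and 8 lower in S and 12 and 8 in U. Leaving out single libraries turned the direction of some changes with time, none of them called with all libraries. In S the values ran from -0.33 to 1.21 for HSC82, from -0.23 to 0.87 for HCH1, from -0.10 to 0.50 for CDC37, from -0.47 to 1.58 for FES1, from -0.60 to 1.87 for SIS1, from -0.18 to 2.13 for APJ1, from -2.11 to 3.52 for BTN2, from -0.70 to 1.77 for CUR1 and from -1.17 to 0.64 for KAR2. In U they ran from -0.34 to 1.39 for HSC82, from -0.39 to 1.11 for HCH1, from -0.66 to 1.56 for FES1, from -0.61 to 1.73 for SIS1, from -0.22 to 2.19 for APJ1, from -2.45 to 3.81 for BTN2, from -0.95 to 1.68 for CUR1, from -1.28 to 0.55 for KAR2, from -0.0073 to 2.05 for CPR6 and from -0.10 to 3.25 for SSA4. The lower ends, and the upper ends for KAR2, were also the values without both 6 h libraries of number 2, and of number 1 for KAR2. Between the strains, HSP30 at 12 h ran from -0.19 to 0.45, HSF1 at 6 h from -0.0771 to 0.29 and HSP42 at 6 h from -3.45 to 2.32. Median-of-ratios scaling gave CDC37 -0.0141 in S and -0.0138 in U. The number of libraries and the unknown depth limit the precision, and the step between the 6 h libraries sets most errors.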

Other observations

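Other genes of stress control moved with time beside the chaperones. Of 6 other stress regulators, 3 were called higher at 12 h in each strain and 0 lower in S and 1 in U, beside 33.2% of all rows called higher in S and 33.5% in U. GAC1, a subunit that targets a phosphatase to Hsf1 and glycogen enzymes, changed by 1.41 in S and 1.74 in U, and RPN4, the regulator of proteasome genes, by 1.34 in S and 1.39 in U. MSN2, a regulator of the general stress genes, changed by -0.39 in U. Both tested paralogs of HSP31, out of 3, were called higher in each strain, with HSP33 at 2.92 in S and 2.84 in U. These genes are low, at most 8.86 FPKM in any library. At 6 h they reached at most 0.25 FPKM in S and 0.19 FPKM in U. The size of their change thus depends on the 1 FPKM added before the log2 scale. How alike their sequences are was not worked out. The stress response element went with the difference between libraries 1 and 2 at 6 h in other genes: 15.7% of genes with it were at least 2-fold higher in library 1 of S and 8.12% in U, against 3.57% and 1.54% of genes without it.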
